A study of Mus musculus with 6 samples.

Results

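The mouse collagen genes were followed across 6 one-colour microarrays of pluripotent cells. Members are the genes whose symbol is Col, a number, a and a number. RefSeq lists 44 such genes, and 39 of them were named by a probe among the 17015 genes named on the array: 11 fibrillar collagens, 8 basement membrane collagens and 20 of other types. Col6a3, Col20a1, Col12a1, Col6a5 and Col22a1 were not analysed here. The scanner files carry no gene names, so symbols come from matching each probe's transcript to RefSeq, and the brightest probe on average stands for each gene.

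The cells were all of strain 129 and grown in Knockout DMEM with KSR. They were epiblast stem cells (EpiSCs) labelled E3.5, EpiSCs labelled E5.5, and mouse embryonic stem (mES) cells, which are also labelled E3.5. Each was analysed with SB431542, given at 20 µM every day for 4 days, and without it. SB431542 is a kinase inhibitor of the receptors through which Activin, Nodal and TGF-beta signal. Each of the 6 states is 1 array of 1 line, so no value below has a replicate of its own, and each pair of arrays compares those arrays and not the conditions.

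Collagens are secreted proteins of 3 chains wound into a triple helix. Fibrillar collagens assemble into the cable-like fibres of connective tissue, and types I and III are their main forms in fibroblasts. Type IV collagen forms the sheet-like network of basement membranes, the layer on which the epiblast rests. TGF-beta signalling is known to stimulate collagen genes in fibroblasts. The early embryo makes its first basement membranes from endoderm and epiblast, while a fibroblast feeder layer, where a culture has one, makes fibrillar collagen.

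The promoters of 4 members are shown because these genes stand for the contrast described below: Col1a2 and Col3a1 had ratios of opposite sign in the EpiSC lines, while Col4a1 and Col4a2 share a promoter. Each window runs from 250 bases before to 50 bases after the start site in RefSeq (GRCm38.p6) and is written 5′ to 3′ on the gene's strand. Capitals mark 4 short motifs searched on both strands. The CCAAT box is the letters CCAAT, which read ATTGG from the opposite strand. The TATA box was searched as TATAAA, which reads TTTATA from the opposite strand. The GC box was searched as GGGCGG, which reads CCGCCC from the opposite strand. The core of a Smad-binding element was searched as CAGAC, which reads GTCTG from the opposite strand. No motif overlaps another in the windows shown.
Col1a2, chr6:4505368-4505667, plus strand: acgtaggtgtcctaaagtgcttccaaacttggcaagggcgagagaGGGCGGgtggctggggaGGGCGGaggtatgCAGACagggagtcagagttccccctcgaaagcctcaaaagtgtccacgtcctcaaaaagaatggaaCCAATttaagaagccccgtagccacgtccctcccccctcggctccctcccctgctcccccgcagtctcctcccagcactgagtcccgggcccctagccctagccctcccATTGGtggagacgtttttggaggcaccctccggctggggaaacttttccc
Col3a1, chr1:45311288-45311587, plus strand: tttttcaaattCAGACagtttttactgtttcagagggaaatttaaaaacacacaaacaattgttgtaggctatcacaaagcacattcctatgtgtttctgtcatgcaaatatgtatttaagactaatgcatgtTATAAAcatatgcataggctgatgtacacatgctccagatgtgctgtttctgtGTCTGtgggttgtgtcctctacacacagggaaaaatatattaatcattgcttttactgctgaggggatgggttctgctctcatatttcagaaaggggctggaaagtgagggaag
Col4a1, chr8:11312777-11313076, minus strand: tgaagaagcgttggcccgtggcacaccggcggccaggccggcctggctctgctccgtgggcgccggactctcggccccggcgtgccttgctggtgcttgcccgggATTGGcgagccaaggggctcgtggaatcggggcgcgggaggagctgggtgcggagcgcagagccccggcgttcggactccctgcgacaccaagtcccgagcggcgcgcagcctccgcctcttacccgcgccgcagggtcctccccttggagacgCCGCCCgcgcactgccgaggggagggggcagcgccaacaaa
Col4a2, chr8:11312555-11312854, plus strand: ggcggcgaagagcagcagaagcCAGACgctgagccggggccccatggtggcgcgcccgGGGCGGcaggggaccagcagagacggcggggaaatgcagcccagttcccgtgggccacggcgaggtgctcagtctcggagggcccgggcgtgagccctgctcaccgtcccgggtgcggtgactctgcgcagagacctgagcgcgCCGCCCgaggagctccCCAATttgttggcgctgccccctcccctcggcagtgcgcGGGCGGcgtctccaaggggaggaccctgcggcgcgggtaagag

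Promoters were matched for 32 of the 39 members, in 35 windows of 300 bases. GGGCGG occurred in 62.9% of the collagen windows and in 35.7% of all 32851 RefSeq windows. CAGAC occurred in 51.4% of collagen windows and 49.6% of all windows, CCAAT in 37.1% and 37.4%, and TATAAA in 14.3% and 13.6%. In the windows shown, Col3a1 holds a TATAAA and no GGGCGG, whereas Col1a2, Col4a1 and Col4a2 hold GGGCGG and no TATAAA. Col4a1 and Col4a2 run in opposite directions from start sites 21 bases apart, and their windows share 78 bases. Col4a5 and Col4a6 on chromosome X have start sites 1343 bases apart and no shared window. A match says only that these letters are present.

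Signals are given as log2 levels, that is, log2 of a probe's processed signal over the 75th percentile of its array, so that 0 is the 75th percentile and a difference of 1 is a 2-fold difference. A probe's level cannot be set against another probe's, so each gene is compared only with itself. Between 82.6% and 85.7% of the 43379 gene spots per array were well above background, and 0 were saturated. Repeat spots of the same probe within an array, for probes brighter than the median, gave an SD of 0.13 for a log2 ratio. This SD does not cover differences between arrays, slides or cultures. Of the 39 members, 38 exceeded background on 1 array or more and entered the comparisons, 31 did so on all 6, and Col6a6 did so on none. Pou5f1, the pluripotency factor, had log2 levels of 5.73 and 5.88 in untreated E3.5 and E5.5 EpiSCs, and of 5.59 in untreated mES cells. With SB431542 its levels were -5.39 and -4.38 in the E3.5 and E5.5 EpiSCs and 5.35 in mES cells. Pou5f1 fell in treated EpiSCs in the limma test. In such bulk RNA, fewer cells of a type and less RNA per cell cannot be told apart.

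**Figure D1:**
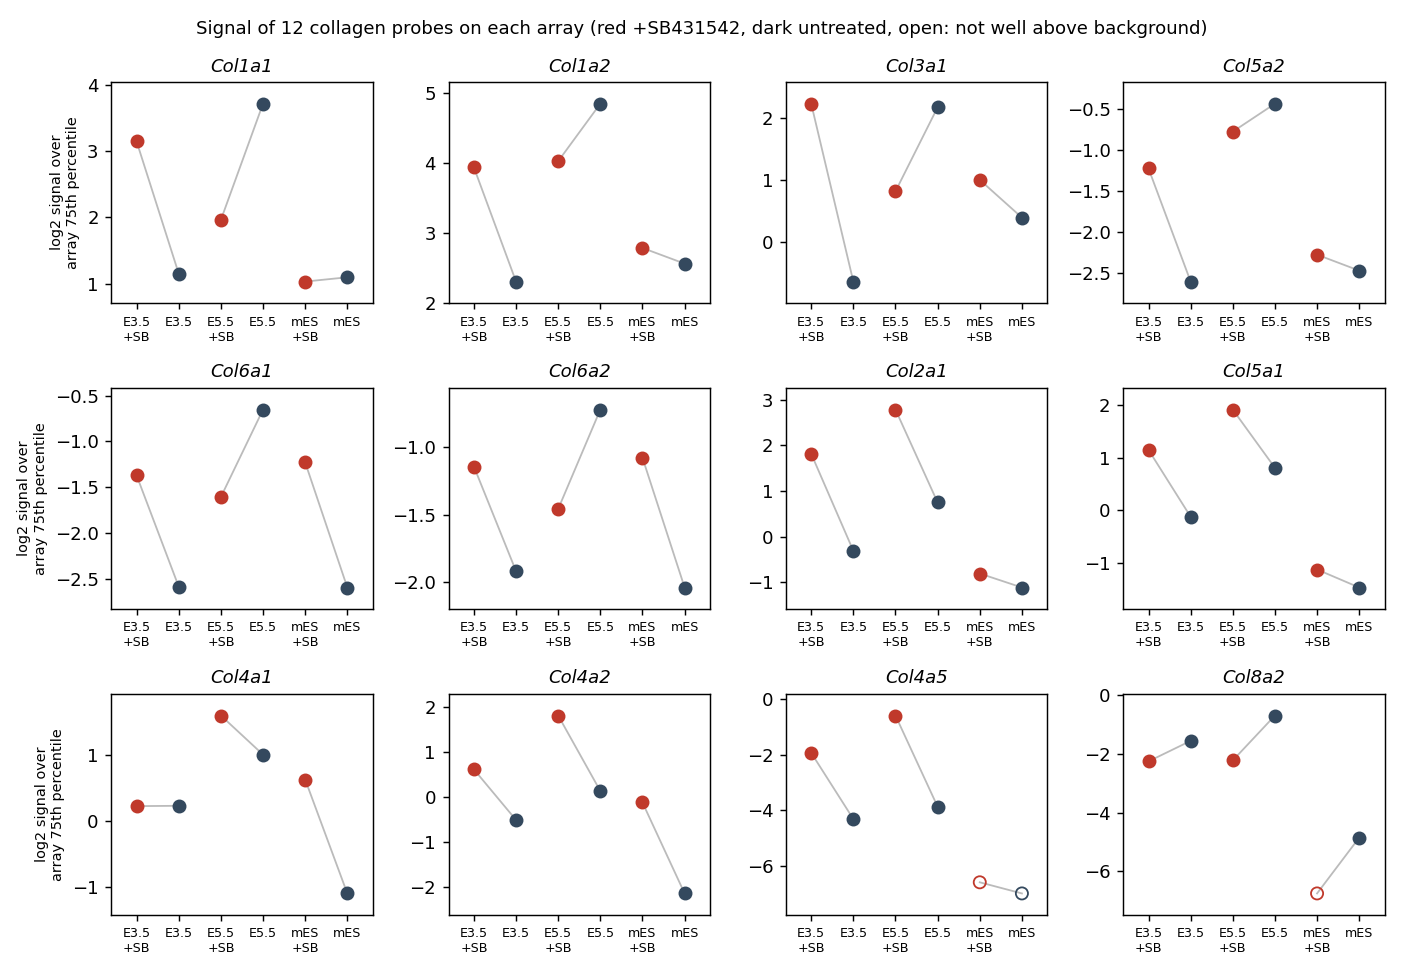
Log2 level relative to the array's 75th percentile (vertical, a scale of its own in each panel) of 12 collagen probes on the 6 arrays (horizontal), with SB431542 in red and without it in dark blue, lines joining the arrays of 1 line, and open circles for signals not well above background. Col1a1, Col1a2 and Col3a1 slope in opposite directions in the E3.5 and E5.5 pairs, while Col2a1, Col4a2 and Col4a5 are higher on both treated EpiSC arrays.

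The first question was how the collagens differ between SB431542-treated and untreated EpiSCs. In E3.5 EpiSCs 10 of 11 fibrillar collagens were at least 2-fold higher with SB431542 by the probe used, and second probes, given below, differed for several of them. The median log2 ratio of the 11 was 1.63, against a median of -0.31 over all genes. In E5.5 EpiSCs 2 of 11 were at least 2-fold higher and 3 were at least 2-fold lower, with a median of -0.32 against -0.05 over all genes. Of all 38 collagens, 17 were at least 2-fold higher in the E3.5 line and 1 was lower, where 11.6% of all genes were that much higher and 19.7% that much lower. In the E5.5 line 4 were higher and 7 lower, where 6.60% of all genes were higher and 8.83% lower. The treated and untreated E3.5 arrays lie on slides 3 and 2, so slide and SB431542 cannot be told apart in that pair, while the E5.5 pair and the mES pair each lie within slide 1.

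Col1a1 and Col1a2 encode the chains of type I collagen, the main protein of fibrous tissue. Col1a1 had log2 levels of 3.14 with SB431542 and 1.15 without it in E3.5 EpiSCs, 1.96 with and 3.71 without it in E5.5 EpiSCs, and 1.03 with and 1.10 without it in mES cells. Its ratios were thus 1.99 in the E3.5 line, -1.75 in the E5.5 line and -0.06 in mES cells. Both of its other probes above background gave the same signs in the EpiSC lines, at 2.05 and 0.87 in the E3.5 line and at -1.53 and -1.38 in the E5.5 line. Col1a2 stood at 3.93 with and 2.30 without SB431542 in E3.5 EpiSCs, at 4.02 with and 4.85 without it in E5.5 EpiSCs, and at 2.78 with and 2.56 without it in mES cells. For both chains the treated levels of the EpiSC lines lay between the untreated level of the E3.5 line and that of the E5.5 line.

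Col3a1, the single chain of type III collagen, which forms fibres together with type I in soft tissues, showed the widest such split. Its log2 level was 2.23 with and -0.64 without SB431542 in E3.5 EpiSCs, 0.81 with and 2.17 without it in E5.5 EpiSCs, and 0.997 with and 0.39 without it in mES cells. A second Col3a1 probe had smaller ratios of the same sign, 0.32 in the E3.5 line and -0.35 in the E5.5 line. Col11a1, a chain of the type XI collagen that nucleates cartilage fibrils, stood at -0.40 with and -2.46 without SB431542 in E3.5 EpiSCs, at -3.57 with and -2.15 without it in E5.5 EpiSCs, and at -3.06 with and -2.89 without it in mES cells. Its ratios of 2.06 and -1.43 had the signs of its second probe, at 1.81 and -0.84. Col1a1, Col3a1 and Col11a1 were the 3 members at least 2-fold apart in opposite directions in the EpiSC lines. Col5a2, a chain of the type V collagen that starts type I fibrils, had ratios of 1.38 and -0.34.

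Col2a1 and Col5a1 were at least 2-fold higher with SB431542 in both EpiSC lines. Col2a1 encodes type II collagen, the fibrillar collagen of cartilage and notochord. Its log2 levels were 1.81 with and -0.31 without SB431542 in E3.5 EpiSCs, 2.78 with and 0.75 without it in E5.5 EpiSCs, and -0.80 with and -1.11 without it in mES cells. Both treated EpiSC arrays were higher than both untreated ones, and a second probe gave ratios of 1.49 and 2.14. Of the 10 cartilage genes examined beside it, limma called 0 for SB431542 in EpiSCs, against 2.13% of all genes. With the line as replicate block Sox6 and Sox9 rose, where 2.34% of all genes were called higher. In the E3.5 pair, where 11.6% of all genes were at least 2-fold higher and 19.7% lower, 4 of the 10 were higher and 3 lower (median -0.09). In the E5.5 pair, where 6.60% were higher and 8.83% lower, 2 of the 10 were higher and 1 lower (median 0.07). In the E3.5 pair Cnmd (5.32), Sox6 (3.23) and Sox5 (2.03) were among the higher ones, and Matn4 (-2.44), a cartilage matrix protein, among the lower ones. Cnmd and Sox5 were not above background on the untreated E3.5 array, nor was Matn4 on the treated one. Acan, the main cartilage proteoglycan, had ratios of -0.61 and -0.21. Sox9, a transcription factor that activates Col2a1, was among the higher ones in both pairs, at 0.53 with and -1.17 without SB431542 in E3.5 EpiSCs, and at 0.41 with and -1.17 without it in E5.5 EpiSCs. Of 10 neural progenitor genes, 4, namely Hes5, Nr2f1, Zic1 and Pou3f2, rose in treated EpiSCs in the limma test, against 0.922% of all genes. The part of cartilage and neural cell states in the Col2a1 level was not tested.

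Col5a1, the main chain of type V collagen, had log2 levels of 1.15 with and -0.12 without SB431542 in E3.5 EpiSCs, 1.91 with and 0.81 without it in E5.5 EpiSCs, and -1.13 with and -1.47 without it in mES cells. Its second probe gave ratios of -1.02 in the E3.5 line and -0.02 in the E5.5 line, against 1.27 and 1.11 for the probe used, so the direction for Col5a1 depends on the probe. In the E3.5 line Col5a3 (1.46) and Col11a2 (1.01) also had a second probe of the opposite sign, at -0.04 and -0.45. Of the 18 members past 2-fold in the E3.5 pair, 10 had a second probe above background. Of these 10, 7 had the same sign and 4 had another probe past 2-fold. Col24a1, a minor fibrillar collagen of bone, had a ratio of 1.87 in the E3.5 line, where its second probe gave 0.05. Col27a1 was the fibrillar member short of 2-fold in the E3.5 line, at -0.32 there and in the E5.5 line. Its second probe gave 0.86 in the E3.5 line, the opposite sign, and -0.59 in the E5.5 line.

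**Figure D2:**
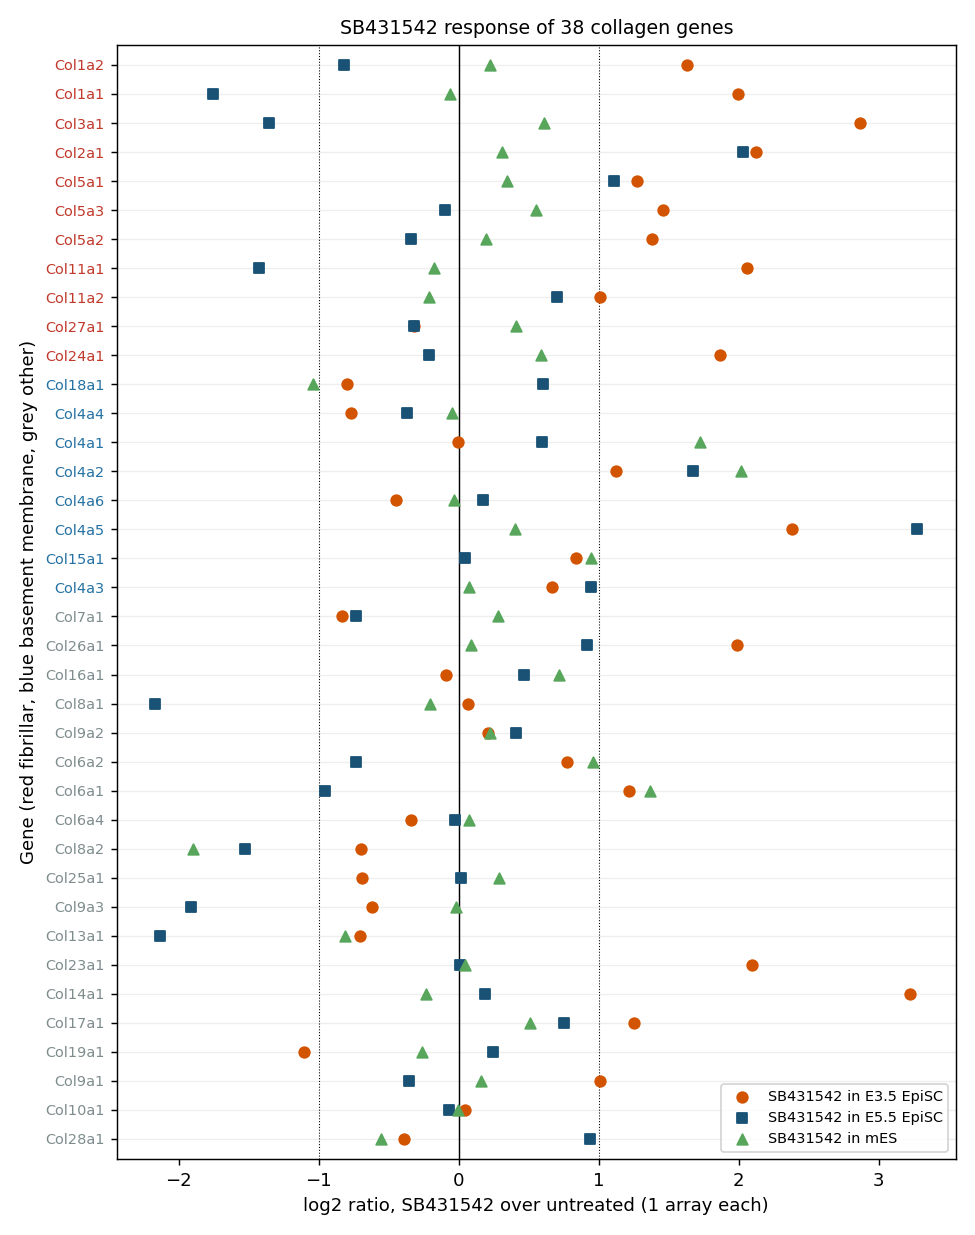
Log2 ratio of SB431542-treated over untreated arrays for each collagen gene, with 1 point for each of the E3.5 EpiSC, E5.5 EpiSC and mES pairs and dotted lines at 2-fold. Points of Col4a5 in mES cells, and of Col17a1, Col28a1 and Col4a3 in the E3.5 line, rest on signals not well above background. Fibrillar genes lie to the right in the E3.5 pair, and Col1a1, Col3a1 and Col11a1 lie to the left of 0 in the E5.5 pair.

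Among the basement membrane collagens, Col4a2 and Col4a5 were at least 2-fold higher with SB431542 in both EpiSC lines, and 0 of 8 were at least 2-fold lower in either. Over all genes 11.6% were higher and 19.7% lower in the E3.5 line, and 6.60% and 8.83% in the E5.5 line. Col4a5, a chain of the type IV network of kidney, lung and smooth muscle, had log2 levels of -1.93 with and -4.31 without SB431542 in E3.5 EpiSCs, and -0.59 with and -3.87 without it in E5.5 EpiSCs. On both mES arrays it was not well above background. Its ratios of 2.38 and 3.28 were both larger than those of Col4a6, its neighbour on the X chromosome, whose probe in use gave -0.45 and 0.18. Another Col4a6 probe, above background on 4 arrays, gave 0.93 in the E3.5 line and 2.25 in the E5.5 line, so no direction is given for Col4a6.

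Col4a1 and Col4a2 encode the chains of the common type IV network found in nearly every basement membrane. Col4a2 stood at 0.60 with and -0.52 without SB431542 in E3.5 EpiSCs, at 1.80 with and 0.12 without it in E5.5 EpiSCs, and at -0.13 with and -2.15 without it in mES cells. Col4a1 stood at 0.22 on both E3.5 arrays, at 1.59 with and 0.998 without SB431542 in E5.5 EpiSCs, and at 0.62 with and -1.10 without it in mES cells. The partners therefore had unequal ratios in the E3.5 line, 1.12 for Col4a2 and -0.00 for Col4a1, although their promoter windows overlap. Second probes gave 0.90 for Col4a2 and 0.16 for Col4a1 there.

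Col18a1, a basement membrane proteoglycan and the source of endostatin, had log2 levels of 3.02 with and 3.82 without SB431542 in E3.5 EpiSCs, 3.85 with and 3.25 without it in E5.5 EpiSCs, and 3.22 with and 4.27 without it in mES cells. Its second probe gave the same signs. Col4a4, a chain of the kidney network, stood at 1.10 with and 1.87 without SB431542 in E3.5 EpiSCs, at 1.43 with and 1.80 without it in E5.5 EpiSCs, and at 1.70 with and 1.75 without it in mES cells. Both stayed short of 2-fold in each EpiSC line. The median log2 ratio of the 8 basement membrane genes was 0.33 in the E3.5 line and 0.60 in the E5.5 line, against -0.31 and -0.05 over all genes.

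The other types had medians near 0, at 0.05 in the E3.5 line and -0.03 in the E5.5 line, against -0.31 and -0.05 over all genes. Members of these types went different ways. Col14a1, a collagen that sits on the surface of type I fibrils, had the highest ratio of any collagen in the E3.5 pair, at 3.22, with log2 levels of -2.01 with and -5.24 without SB431542. In the E5.5 line its ratio was 0.19. Col23a1, a transmembrane collagen, had ratios of 2.09 and 0.01, and a second probe gave 1.51 and -0.03. Col26a1, a little-studied collagen first found in reproductive tissue, stood at 2.19 with and 0.21 without SB431542 in E3.5 EpiSCs, at 1.07 with and 0.15 without it in E5.5 EpiSCs, and at -1.51 with and -1.60 without it in mES cells. Both treated EpiSC arrays were above both untreated ones for Col26a1.

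Col6a1 and Col6a2 encode chains of type VI collagen, which forms beaded filaments around cells. Their ratios were 1.21 and 0.77 in E3.5 EpiSCs and -0.95 and -0.73 in E5.5 EpiSCs, split between the lines in the same way as those of Col1a1 and Col3a1. In E5.5 EpiSCs, where 8.83% of all genes were at least 2-fold lower with SB431542, so were 4 of 19 collagens of other types. They were Col8a1 (-2.17) and Col8a2 (-1.53), the chains of the short-chain type VIII network, the cartilage collagen Col9a3 (-1.91) and the transmembrane collagen Col13a1 (-2.14). Second probes of Col8a1 (-1.98) and Col13a1 (-1.43) had the same sign, and Col19a1 was the member at least 2-fold lower in the E3.5 line, at -1.10. Col7a1, which forms the anchoring fibrils of skin, stood at 2.11 with and 2.94 without SB431542 in E3.5 EpiSCs, at 2.17 with and 2.90 without it in E5.5 EpiSCs, and at 2.31 with and 2.03 without it in mES cells. Col16a1, a collagen linked to several fibril types, stood at 0.11 with and 0.21 without SB431542 in E3.5 EpiSCs, at 1.31 with and 0.85 without it in E5.5 EpiSCs, and at -0.41 with and -1.13 without it in mES cells.

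**Figure D3:**
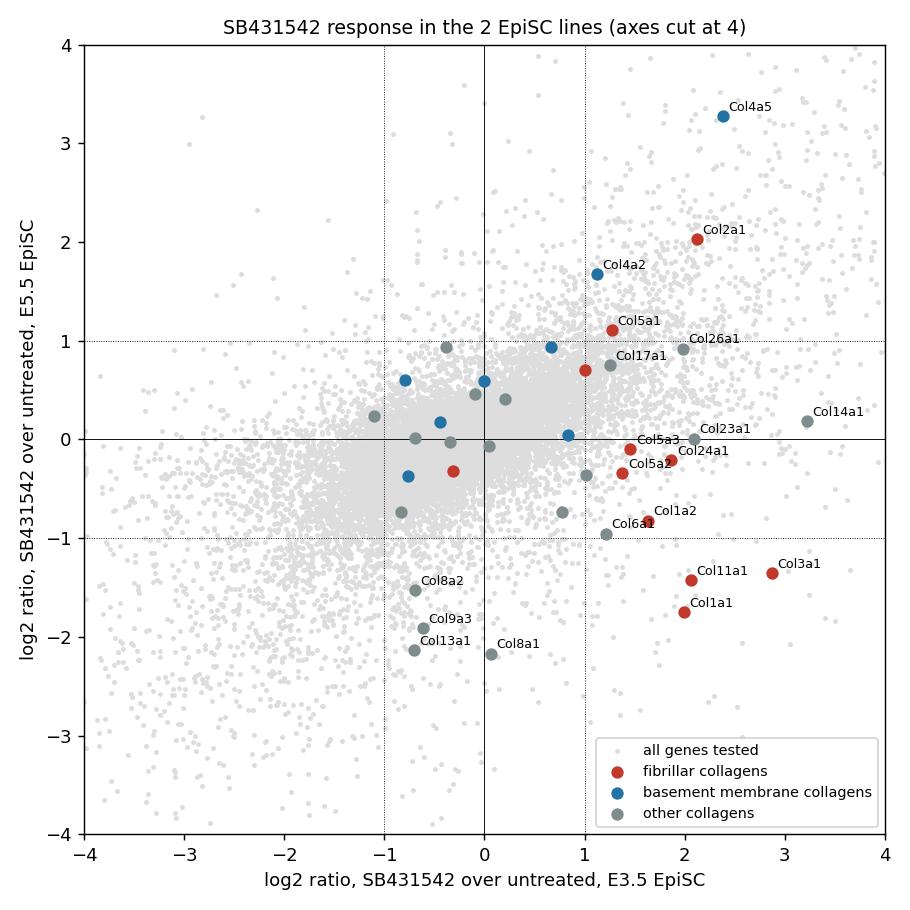
Each collagen gene by its SB431542 log2 ratio in E3.5 EpiSCs (horizontal) and in E5.5 EpiSCs (vertical), both in log2 units and ending at 4, with all tested genes as light grey dots. Col2a1, Col4a2, Col4a5 and Col5a1 lie at 1 or more on both axes, and Col1a1, Col3a1 and Col11a1 lie at 1 or more on one and at -1 or less on the other.

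With each EpiSC line counted as 1 replicate of its class, limma with Benjamini-Hochberg adjustment over 16153 genes called 0 of 38 collagens for SB431542 in EpiSCs, where it called 2.13% of all genes (0.922% higher and 1.21% lower). At an unadjusted p under 0.05 it called 7 collagens, 4 higher and 3 lower, and 20.0% of all genes. Col4a5 had an estimate of 2.83 ± 0.53 (SE, adjusted p = 0.0834, limma) and Col2a1 of 2.08 ± 0.53 (SE, adjusted p = 0.144, limma). Each line supplies a treated and an untreated array, so the line can be entered as a replicate block. With that block Col4a5 (2.83 ± 0.35, adjusted p = 0.0267, limma) and Col2a1 (2.08 ± 0.28, adjusted p = 0.0308, limma) rose, the 2 collagens called of 38, where 5.40% of all genes were called (2.34% higher and 3.06% lower). Both are higher in 2 of 2 lines. The fit with the block leaves 1 residual degree of freedom, against 2 without it, so its SEs and p-values rest largely on the spread limma takes from all genes. Col1a1, Col3a1 and Col11a1, which had opposite ratios in the lines, have estimates between the lines' ratios, and whether the lines differ could not be tested with 1 array a state. Across all 3 lines with line as a term, 0 of 38 collagens and 0 of all genes (0%) passed, with 7 collagens at an unadjusted p under 0.05 and a lowest adjusted p of 0.502 by limma.

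In mES cells, which kept their Pou5f1 level, fewer collagens stood apart between treated and untreated arrays, with 3 of 38 at least 2-fold higher and 2 at least 2-fold lower, where 1.42% of all genes were higher and 1.13% lower. The basement membrane pair Col4a2 (2.02) and Col4a1 (1.72) led, with Col6a1 at 1.37. Col18a1 was lower, at -1.04. Col8a2 was at -4.85 in untreated mES cells and not well above background in treated ones. Against a background floor, defined under processing, it was 2.65-fold lower. Of the 17 genes of parietal and primitive endoderm, the embryonic tissue that lays down much type IV collagen, 9 were at least 2-fold higher in the same pair and 0 lower, among them Gata6 (2.60), Lama1 (2.24), Sox7 (1.95) and Dab2 (1.91). The list went both ways in EpiSCs, with 3 higher and 5 lower in the E3.5 SB431542 pair, against 11.6% and 19.7% of all genes. Gata6 had ratios of -2.55 and -3.53 in the E3.5 and E5.5 lines, and Lama1 of 3.59 and 3.35. Limma called Lama1 and Plat higher for SB431542 in EpiSCs, 2 of the 17, against 0.922% of all genes. The part of such cells in the Col4a1 and Col4a2 values was not tested.

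Without SB431542, each EpiSC line was compared with mES cells to ask how primed and naive pluripotent cells differ in collagen expression. In E5.5 EpiSCs 19 of 38 collagens were at least 2-fold higher than in mES cells and 4 had a measured signal at least 2-fold lower, where 11.9% of all genes were higher and 10.6% lower. With both arrays required to be above background, 2 were lower, Col18a1 and Col9a2. In E3.5 EpiSCs 7 were higher and 4 had a measured signal at least 2-fold lower, where 11.0% of all genes were higher and 12.5% lower. With both arrays above background Col3a1 was the 1 lower collagen. Both ratios share the single untreated mES array. The E3.5 array lies on slide 2 and the mES array on slide 1, so slide and line cannot be told apart there, while the E5.5 and mES arrays share slide 1. By class the E5.5 line had 7 of 11 fibrillar, 3 of 8 basement membrane and 9 of 19 other collagens at least 2-fold higher, and the E3.5 line had 1, 3 and 3.

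Col8a2, whose protein forms the sheet under the corneal endothelium, was the collagen called by the limma test of EpiSCs over mES cells, the 1 of 38 where 1.52% of all genes were called (0.384% higher and 1.13% lower). Its log2 level was -1.56 in E3.5 EpiSCs and -0.70 in E5.5 EpiSCs, and -4.85 in mES cells. It rose by 3.72 ± 0.46 (SE, 2 EpiSC arrays against 1 mES array, adjusted p = 0.0466 by limma). The lone mES array is assumed to vary like the EpiSC lines, and the call was lost without the E5.5 EpiSC array (adjusted p = 0.0646, limma) and without either treated EpiSC array (adjusted p = 0.109 for each, limma). At an unadjusted p under 0.05 there were 9 collagens, 7 higher and 2 lower, and 16.5% of all genes.

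All 7 collagens that were at least 2-fold higher in E3.5 EpiSCs than in mES cells were so in E5.5 EpiSCs too, with type IV among them. Col4a2 was 1.63 higher in the E3.5 line and 2.27 in the E5.5 line, and Col4a1 was 1.33 and 2.10 higher. Second probes gave 0.81 and 1.27 for Col4a2 and 0.50 and 1.29 for Col4a1, short of 2-fold in the E3.5 line. For Col4a5 mES cells gave no signal well above background. Against the background floor it was 5.21-fold higher in E3.5 EpiSCs and 7.09-fold higher in E5.5 EpiSCs. Col26a1 (1.81 and 1.75), Col16a1 (1.33 and 1.97), Col5a1 (1.34 and 2.28) and Col8a2 (3.29 and 4.16) were the other 4. For Col16a1 a second probe gave -0.38 in the E3.5 line and 0.46 in the E5.5 line. For Col5a1 a second probe gave 0.18 and 0.05, so its difference from mES cells depends on the probe.

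In the other direction, Col17a1, the transmembrane collagen of hemidesmosomes in epithelia, was above background in mES cells at -3.74 and in neither untreated EpiSC line. Against the background floor it was 6.15-fold lower in E3.5 EpiSCs and 5.16-fold lower in E5.5 EpiSCs. Col28a1 was also above background in untreated mES cells and in neither untreated EpiSC line. Against that floor it was 1.54-fold lower in E3.5 EpiSCs and 1.49-fold lower in E5.5 EpiSCs. With another background correction (normexp) both turned positive in the E5.5 line, at 0.04 for Col17a1 and 0.86 for Col28a1. Col4a3, a chain of the kidney network, was 1.38-fold lower in E3.5 EpiSCs against the background floor. Col3a1 (-1.03) was the other collagen counted as lower in the E3.5 line, and Col9a2 (-1.09), a cartilage collagen, was lower in the E5.5 line. Col18a1 was lower in E5.5 EpiSCs, at -1.01, and in E3.5 EpiSCs it was at -0.44. A second probe of Col6a4 gave -2.60 and -2.54 against 0.08 and 0.10 for the probe used, so no direction is given for Col6a4.

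**Figure D4:**
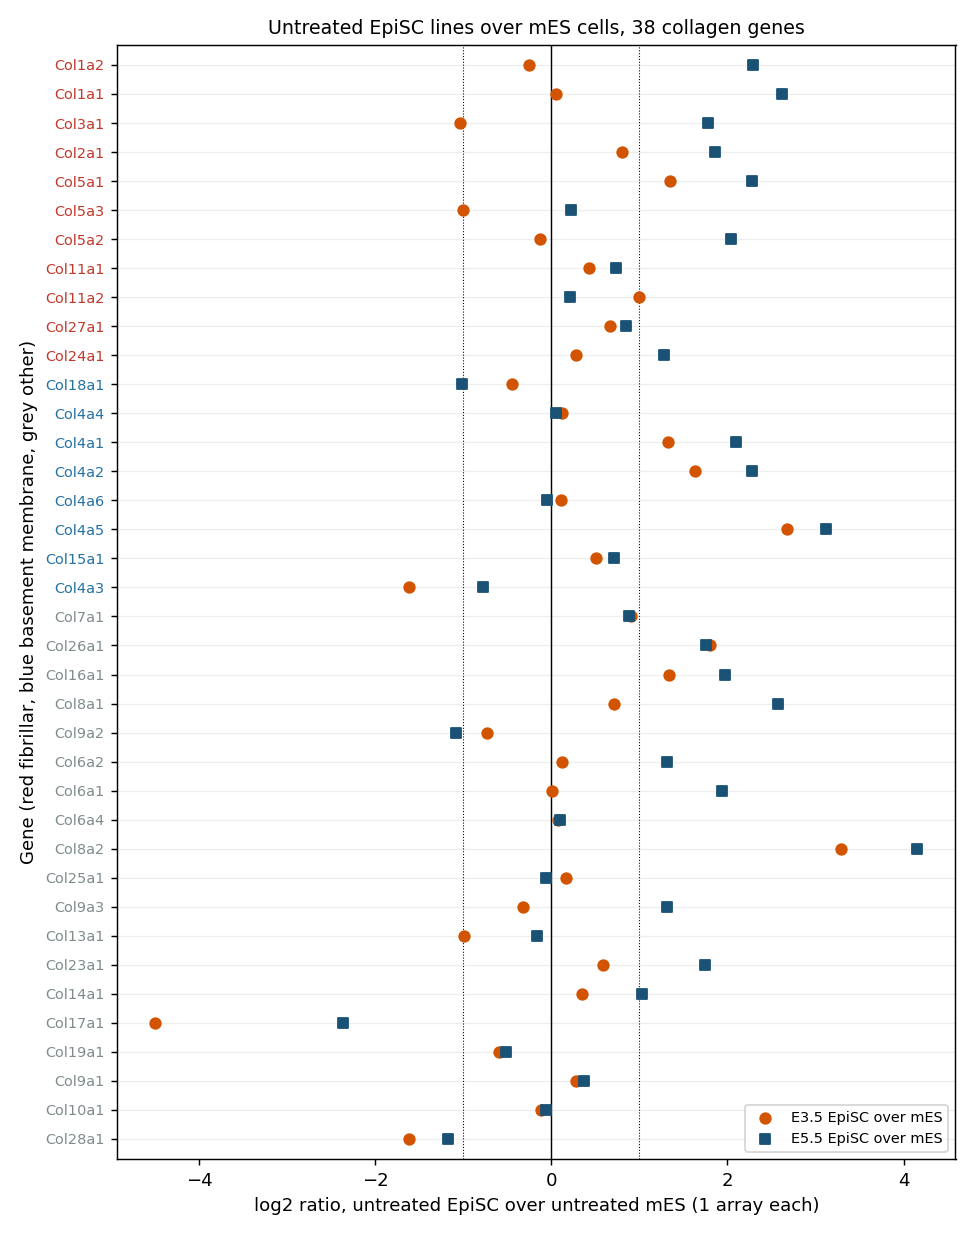
Log2 ratio of untreated EpiSCs over untreated mES cells for each collagen gene, with 1 point for the E3.5 line and 1 for the E5.5 line. Fibrillar genes such as Col1a1 and Col3a1 lie right of 1 in the E5.5 line and left of it in the E3.5 line, while Col4a1, Col4a2 and Col8a2 lie right of 1 in both.

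The EpiSC lines were next compared with each other before treatment. Of 38 collagens, 11 were at least 2-fold higher in untreated E5.5 EpiSCs than in untreated E3.5 EpiSCs and 0 were at least 2-fold lower, where 5.97% of all genes were higher and 3.78% lower. Of these, 6 were fibrillar, led by Col3a1 (2.81), Col1a1 (2.56), Col1a2 (2.54) and Col5a2 (2.17), and 5 were of other types, namely Col6a1 (1.93), Col8a1 (1.86), Col9a3 (1.63), Col6a2 (1.19) and Col23a1 (1.17). No basement membrane gene reached 2-fold, the median of the 8 being 0.33. The arrays of the 2 lines lie on different slides, so slide and line cannot be told apart here. Over treated and untreated arrays together, limma called 0 of 38 collagens and 0% of all genes for E5.5 over E3.5 EpiSCs, with 5 collagens at an unadjusted p under 0.05 and a lowest adjusted p of 0.468. This untreated difference and the SB431542 ratios use the same 2 untreated arrays, so they are not independent of each other.

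Fibroblast genes other than collagens were examined beside these values, because a fibroblast feeder layer is one source of types I, III, V and VI collagen. All 20 listed genes were measured. Their summed signal, in units of the array's 75th percentile, was 141 and 135 in E3.5 EpiSCs with and without SB431542. It was 218 and 133 in E5.5 EpiSCs with and without it, and 82.8 and 63.0 in mES cells with and without it. Bright probes weigh most in such a sum, so it does not measure fibroblast content. In E5.5 EpiSCs Tagln had log2 levels of 5.45 with and 3.89 without SB431542, while the list's median log2 ratio was -0.35. In the E3.5 SB431542 pair 6 were at least 2-fold higher and 2 lower, against 11.6% and 19.7% of all genes. In the E5.5 pair 3 were higher and 4 lower, against 6.60% and 8.83% of all genes. In the mES pair 6 were higher (Pdgfra, S100a4, Dcn, Twist2, Fap and Thbs2) and 0 lower, against 1.42% and 1.13% of all genes. Lum and Ogn, small proteoglycans that bind collagen fibrils, had ratios of 3.04 and 4.19 in the E3.5 pair and of -1.33 and -2.32 in the E5.5 pair. Postn, a matrix protein of connective tissue, had ratios of 2.29 and -2.60. Tagln, a smooth muscle actin-binding protein, went the other way, at -2.52 and 1.57. In untreated E5.5 over E3.5 EpiSCs 8 fibroblast genes were at least 2-fold higher and 0 lower, with Ogn at 4.65, Lum at 3.92, Postn at 2.31 and Dcn at 2.21. Ogn and Fap were not above background on the untreated E3.5 array. The limma tests called 0 of the 20 in each comparison, where they called from 0% to 5.40% of all genes. The part of fibroblasts in the collagen values was not tested.

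For 6 collagens chosen after their values were seen, Col1a1, Col1a2, Col3a1, Col5a2, Col6a1 and Col6a2, the median log2 ratio was 1.51 in the E3.5 SB431542 pair, -0.89 in the E5.5 pair, 2.36 in untreated E5.5 over E3.5 EpiSCs and 1.99 in E5.5 EpiSCs over mES cells. The 20 fibroblast genes had medians of 0.12, -0.35, 0.91 and 1.88 in the same pairs, against -0.31, -0.05, -0.01 and -0.09 over all genes. In the mES SB431542 pair the medians were 0.42 for the 6 collagens and 0.53 for the fibroblast genes. In E3.5 EpiSCs over mES cells they were -0.06 and 0.42, of opposite sign. The collagen medians reflect that choice of genes, so setting them beside the fibroblast medians is not a test. Col5a1, Col5a3 and Col6a4 are of the same types and were left out. Their ratios were 1.27, 1.46 and -0.34 in the E3.5 SB431542 pair, and 1.11, -0.10 and -0.02 in the E5.5 pair. In untreated E5.5 over E3.5 EpiSCs they were 0.93, 1.22 and 0.02.

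**Figure D5:**
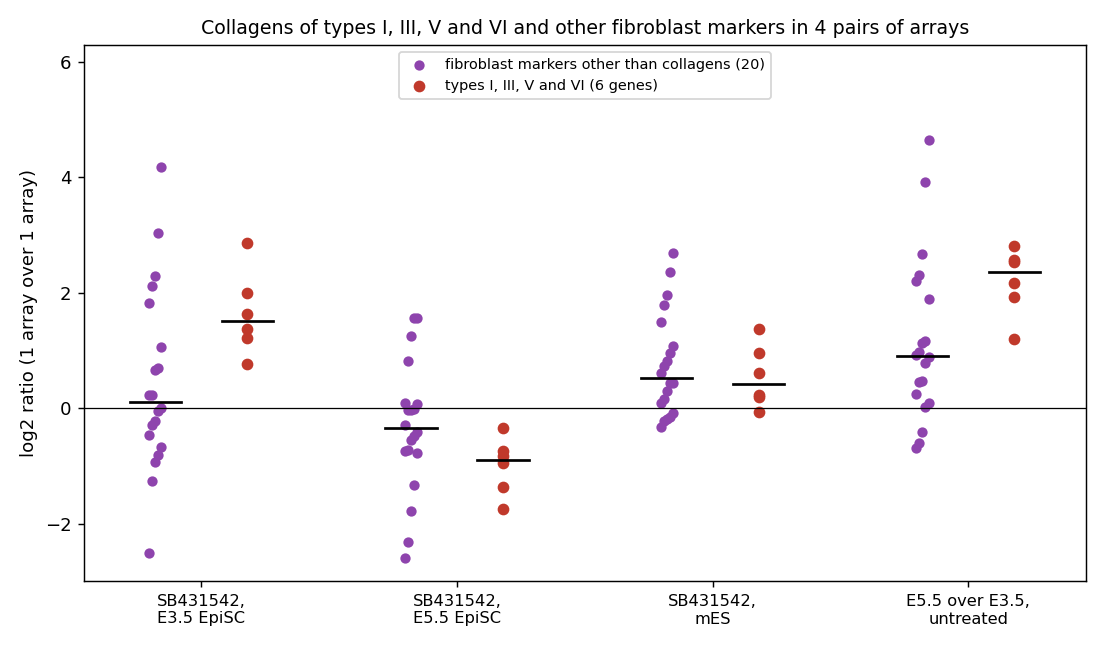
Log2 ratios of 6 collagens of types I, III, V and VI and of the 20 other fibroblast markers, in the 3 SB431542 pairs and in untreated E5.5 over E3.5 EpiSCs. The 6 collagens are those named in the text, chosen after their values were seen. Points are genes and bars are medians. Ogn and Lum are the highest markers in the E3.5 SB431542 pair, at 4.19 and 3.04.

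Collagen chains are hydroxylated, glycosylated and folded by dedicated enzymes and chaperones before secretion. Of 19 genes for them, limma called 0 for SB431542 in EpiSCs and 0 for EpiSCs over mES cells, against 2.13% and 1.52% of all genes. In the E3.5 SB431542 pair Colgalt2, which adds galactose to collagen, was at least 2-fold higher, at 1.03. The prolyl hydroxylase subunits P4ha1 (-1.48) and P4ha2 (-1.39) and the chaperone Fkbp10 (-2.13) were lower, 3 of the 19, and the list's median was -0.58. Over all genes in that pair 11.6% were higher and 19.7% lower, with a median of -0.31. In the E5.5 pair P3h2 (2.52) and Colgalt2 (1.06) were higher and P4ha2 (-1.38) was lower, where 6.60% of all genes were higher and 8.83% lower. Serpinh1, the collagen chaperone HSP47, was 3.08 and 2.99 higher in untreated E3.5 and E5.5 EpiSCs than in mES cells; E5.5 over E3.5 EpiSCs stood at -0.09.

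Of 17 measured genes for collagen processing and cross-linking, limma called 0 for SB431542 in EpiSCs, against 2.13% of all genes. With the line as replicate block Pcolce2, an enhancer of propeptide cleavage, fell, the 1 of 17 called, against 5.40% of all genes. In the E5.5 line Lox, the enzyme that cross-links fibres, had a ratio of -2.26. In untreated EpiSCs over mES cells the E5.5 line had 9 of the 17 past 2-fold upward and 2 downward, against 11.9% and 10.6% of all genes. The E3.5 line had 4 upward and 3 downward, against 11.0% and 12.5% of all genes. Lox stood at 2.11 in the E5.5 line and -0.26 in the E3.5 line, and Loxl3 at 2.51 and 1.39. Of 7 measured collagen receptors limma called 0 in each comparison, where it called from 0% to 5.40% of all genes. Itga11, the alpha subunit of an integrin that binds type I collagen, was at least 2-fold higher with SB431542 in the E3.5 line and at least 2-fold lower in the E5.5 line. Of 6 collagen-cleaving proteases tested limma called 0, against the same shares of all genes. In E5.5 EpiSCs over mES cells 4 (Mmp14, Mmp2, Ctsk and Mmp9) were at least 2-fold higher, against 11.9% of all genes.

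Genes that TGF-beta is known to raise in matrix-making cells gave a mixed picture. Of 13 tested, limma called 0 for SB431542 in EpiSCs, against 2.13% of all genes. Their median estimate was -0.47, against -0.19 over all genes. In the E3.5 pair 2 were at least 2-fold higher and 7 lower (median -1.39), against 11.6% and 19.7% of all genes (median -0.31). In the E5.5 pair 3 were higher and 4 lower (median -0.32), against 6.60% and 8.83% of all genes (median -0.05). In the mES pair 1 was higher and 2 lower, against 1.42% and 1.13% of all genes. With the line as replicate block Smad7, the inhibitory Smad, fell, the 1 of 13 called, against 5.40% of all genes. Its pair ratios were -1.76 in the E3.5 line, -2.17 in the E5.5 line and -3.83 in mES cells. Skil had ratios of -1.86, -1.16 and -1.25, whereas Thbs1 went the other way, at 0.90, 1.54 and 1.04. Ccn2, a matrix signalling protein, had ratios of -1.73 in the E3.5 line and 0.71 in the E5.5 line.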

How the data were processed

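Per the labels, Cy3-labelled cRNA from 6 mouse cell cultures was read on Agilent arrays in a single colour. The deposited scanner files hold a processed intensity per spot, linear and with background subtracted by the scanner program: per the file headers this was Feature Extraction 10.7.1.1, whereas version 9.1 stands in the submitters' processing notes. The deposited series table held equal intensities at 45018 of 45018 spots of each array. Flags for well above background, saturation and outliers are the deposited marks of the same program, scored yes or no.

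Control and outlier spots were left out, repeat spots were averaged, and log2 values were set relative to each array's 75th percentile. Of 41174 probes, 24375 were named through their transcript accession, without version, in RefSeq (GRCm38.p6). They cover 17015 genes, and the 16153 that exceeded background somewhere entered the tests. The file headers name another build, so coordinates are given for RefSeq promoters only. Where a gene was not above background on any array of the dimmer group, the brighter mean was set against a background floor. That floor is the array's lowest signal above background or, if larger, the signal of the gene itself. Some probes not above background lie above the array's lowest such signal, so a fold against this floor is not a strict lower limit.

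Testing was done in R 4.3.3 with lmFit and eBayes of limma 3.58.1 and Benjamini-Hochberg adjustment at 0.05. A fit of 4 arms, with 1 replicate of the EpiSC class from each line, gave the class comparisons, and a fit of line plus SB431542 served the comparisons across lines. No label states that cultures were separate, and p-values thus cover the spread between these samples alone, which may be technical. The line pairs treated with untreated arrays as the same cell line, and the deviations of a line's treated and untreated arrays from their EpiSC means correlated at r = 0.27 across 16153 genes, which are not independent. Single pairs of arrays were described by a 2-fold rule, for genes above background on the brighter array. Alternatives were normexp background correction (offset 50) on the median signal (the mean signal was not used here), quantile normalization, the mean over probes, other filters, the slide or line as a block, and leaving out each array. The tests were checked on simulated data. Values on every array are given for members that pass a test, that are at least 2-fold apart in both EpiSC lines, or that are among the 3 brightest of their class. Members and lists were chosen with earlier results of these data known.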

Additional observations from a re-analysis of the deposited data

Results flagged for a closer look

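For 7 collagens the SB431542 response had opposite signs in the EpiSC lines. Both log2 ratios were beyond 0.25, the limit set by repeat spots, and at least 1 of them was past 2-fold. That limit comes from brighter probes within an array and does not cover differences between arrays or slides. Col9a1, at -5.90 with and -5.54 without SB431542 in E5.5 EpiSCs, was dimmer than the probes behind that limit. In all 7 the E3.5 pair was positive and the E5.5 pair negative. The difference of the log2 ratios, E5.5 minus E3.5, was -4.23 for Col3a1, -3.75 for Col1a1, -3.49 for Col11a1, -2.45 for Col1a2, -2.17 for Col6a1, -1.72 for Col5a2 and -1.37 for Col9a1. The difference was not tested, because each state is 1 array of each line and no residual degrees of freedom remain. Outside that rule, Col6a2 (0.77 in the E3.5 pair and -0.73 in the E5.5 pair) had opposite signs beyond the limit and short of 2-fold, and Col18a1 (-0.80 and 0.60) had them the other way round. The untreated E3.5 array lies on slide 2 and the treated one on slide 3, so slide and SB431542 cannot be told apart in the E3.5 pair. The E5.5 pair lies within slide 1.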

How the results depend on the processing

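Counts of collagens passing limma equalled the reported count or were within 1.5 times it in 40 of 50 alternatives, and counts past 2-fold in 48 of 60. A count of 0 in both was scored as equal. The reported limma count was 0 in each comparison except EpiSCs over mES cells, so most of the 40 set 0 against 0. For SB431542 in EpiSCs, the line as replicate block gave 2 calls in place of 0. For EpiSCs over mES cells the 1 call became 0 with normexp, with the mean over probes, with genes above background on all 6 arrays and, chosen after seeing the data, with all probes tested, and ranged from 0 to 1 when 1 array was left out (0 without E5.5 EpiSC, E5.5 EpiSC + SB431542 or E3.5 EpiSC + SB431542). Its adjusted p for Col8a2 was 0.0868 with normexp. Across 3 lines the count ranged from 0 to 2 when 1 array was left out, with 2 without either mES array; there the fit holds the EpiSC lines alone. For E5.5 over E3.5 EpiSCs it was 0 in each leave-one-out fit.

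Collagens at least 2-fold lower changed most. In the E3.5 SB431542 pair 1 became 0 with normexp, 0 with quantile normalization, 2 with the mean over probes and 0 with the median ratio of all genes set to 0, chosen after seeing the data. In the mES pair 2 became 1 with normexp and 1 with genes above background on both arrays. In E3.5 EpiSCs over mES cells 4 became 1 in both settings. In E5.5 EpiSCs over mES cells 4 became 1 with normexp, and 2 with quantile normalization, with both arrays above background and with the median set to 0. Of the single values 3 reversed, all with normexp and near background: Col17a1 across 3 lines (-0.27), Col17a1 in E5.5 EpiSCs over mES cells (0.0389) and Col28a1 in the same pair (0.86). The median over all genes in the E3.5 SB431542 pair was -0.31, and -0.17 with quantile normalization. The naming alternative was not run, since the main values already rest on RefSeq. With all probes tested, 0 collagens were called in each fit, and calls among the other probes were not counted. The number of arrays limits all of these results.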
